A study of Mus musculus with 22 samples.

Results

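Lipocalin 2 (Lcn2) and the gene of its receptor (Slc22a17) were examined in the hypothalamus of mice carrying Lewis lung carcinoma, 2 genes of the 18820 that the array values could be assigned to. The members were chosen by name through the platform annotation. Where a gene has several probe sets, the one with the highest mean over all arrays stands for it. Each of these 2 genes had 1 probe set, 10481627 for Lcn2 and 10419874 for Slc22a17. Lcn2 was picked with its higher level in tumour-bearing mice already known. Its differences from control are therefore given as a description without a test. Slc22a17 was taken for its role and is tested, although both genes and the tests were chosen with earlier results of these data known.

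The study hybridised RNA from 22 male C57BL/6 mice, each on its own array; the labels give their weight but not their age. Cells of the Lewis lung carcinoma, a tumour line that grows in this strain, were injected into a hind leg muscle under anaesthesia. Hypothalami came from 5 tumour-bearing mice on day 10, 7 on day 14 and 6 on day 17, and from 4 control mice on day 14. Day 14 was thus the only day with controls of its own, and for days 10 and 17 tumour and day cannot be told apart. The labels do not say whether controls received an injection. Mice of all groups lived singly with free food, and ketamine and xylazine were given before dissection.

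Lipocalin 2 is a small secreted protein that binds iron-carrying siderophores and so keeps iron from bacteria. Interleukin 1 and other inflammatory cytokines induce its gene through NF-kappaB, the cofactor IkappaB-zeta and C/EBP factors, and it is a classical acute-phase gene. Neutrophils store the protein in granules, and endothelium and astrocytes of the inflamed mouse brain make it. Slc22a17, also called 24p3R or BOCT, belongs by sequence to the organic cation transporters, is abundant in brain and was described in mice as a cell surface receptor for lipocalin 2. The endocytic receptor megalin (Lrp2) and the melanocortin 4 receptor (Mc4r) have also been described as binding it.

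Each gene has 1 promoter window in the RefSeq table of build GRCm38.p6. The 250 bases before each start are shown because Lcn2 and its receptor gene differed so much in how they varied. Lcn2 lies on the minus strand at chr2:32387740-32387989 and Slc22a17 on the minus strand at chr14:54913133-54913382. Capitals mark a match to the C/EBP-like letters TTGCNNAA.
Lcn2: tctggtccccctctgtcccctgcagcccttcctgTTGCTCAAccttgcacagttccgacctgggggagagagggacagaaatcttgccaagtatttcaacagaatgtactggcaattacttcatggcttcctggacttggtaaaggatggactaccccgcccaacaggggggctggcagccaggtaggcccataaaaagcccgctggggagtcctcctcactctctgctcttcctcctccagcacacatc
Slc22a17: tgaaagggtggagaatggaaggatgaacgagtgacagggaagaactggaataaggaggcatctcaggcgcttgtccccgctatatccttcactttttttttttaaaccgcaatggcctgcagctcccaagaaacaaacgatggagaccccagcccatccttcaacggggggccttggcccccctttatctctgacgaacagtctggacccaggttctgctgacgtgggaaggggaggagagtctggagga
The Lcn2 match lies at positions -216 to -209, counted from -1 at the base before the start. The same letters occur in 9.56% of 32851 such windows. Neither window held the NF-kappaB-like motif (in 17.6% of windows), TTCNNNGAA (STAT-like, 7.02%), AGAACA (glucocorticoid receptor-like, 16.1%) or TGANTCA (AP-1-like, 6.75%). Both strands were searched, and no other motif overlapped the match. A match is only a run of letters, and its absence in this window says nothing about a factor.

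Lcn2 was low in controls and higher in tumour-bearing mice of every day. On the log2 scale of the arrays, the controls read 4.02, 3.53, 3.78 and 5.35. Probe sets of olfactory and vomeronasal receptor genes, which brain should lack, served as a background measure; their 95th percentile was 3.87, so 2 of the 4 controls lay below it. Control replicate 4 stood above the other three.

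On day 10, Lcn2 read 6.33, 6.91, 5.22, 7.05 and 6.41 in the 5 tumour-bearing mice. All but replicate 3 lay above every control. The group mean was 6.38 ± 0.72 (SD, n = 5) against 4.17 ± 0.81 (SD, n = 4) in controls. The difference was 2.21 ± 0.39 (SE of the fit, log2), or 4.63-fold, the largest rise of the 18820 genes.

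On day 14, the only same-day comparison, Lcn2 ran from 5.22 through a median of 6.47 to 7.32 in 7 mice. Replicate 6, the lowest, lay just under control replicate 4, and the other 6 mice lay above every control. The mean was 6.44 ± 0.72 (SD, n = 7), and the difference from control was 2.27 ± 0.37 (SE, log2), or 4.83-fold, again the largest rise of all genes.

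On day 17, Lcn2 ran from 5.79 through a median of 5.80 to 6.36 in 6 mice, all above every control. Of these values, 4 lay between 5.79 and 5.80 and the remaining pair at 6.33 and 6.36. The mean was 5.98 ± 0.28 (SD, n = 6), and the difference from control was 1.81 ± 0.38 (SE, log2), or 3.50-fold, the 5th largest rise. Whether more RNA per cell or more cells of a producing type lay behind such a difference cannot be told apart in tissue RNA.

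Slc22a17 was abundant and nearly flat. It read 10.06, 10.13, 10.11 and 10.08 in the controls, and all 22 arrays lay between 9.86 and 10.15 on the log2 scale, a span of 1.22-fold. The span of Lcn2 over the same arrays was 13.8-fold, counted from a control at 3.53, which lay below the background measure of 3.87.

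The 5 mice of day 10 read 10.15, 10.11, 10.06, 10.01 and 10.07 for Slc22a17, and overlapped the controls. On day 14 the values ran from 9.99 through a median of 10.06 to 10.08. On day 17 they ran from 9.86 through a median of 10.02 to 10.07, with replicates 3 and 5 lowest at 9.93 and 9.86. Below every control lay 2 of 5 mice on day 10, 4 of 7 on day 14 and 5 of 6 on day 17.

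Group means of Slc22a17 were 10.10 ± 0.03 (SD, n = 4) in controls, 10.08 ± 0.05 (n = 5) on day 10, 10.05 ± 0.03 (n = 7) on day 14 and 9.99 ± 0.08 (n = 6) on day 17. None of the 3 differences passed the threshold, a limma p below 0.05 after Benjamini-Hochberg adjustment over all 18820 genes. The difference was -0.018 on day 10 (95% interval -0.12 to 0.08, limma adjusted p = 0.919). It was -0.047 on day 14 (-0.14 to 0.04, limma adjusted p = 0.743). On day 17 it was -0.10 (-0.20 to -0.01, limma adjusted p = 0.258), where the interval of the single gene ended just below 0. These limits correspond to 0.872-fold at the lowest and 1.06-fold at the highest.

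Exact two-sided permutation tests of the Slc22a17 means gave p = 0.579, 0.0333 and 0.0381 on days 10, 14 and 17. The smallest p they could give were 0.00794, 0.00303 and 0.00476. Adjusted over these 3 tests they were 0.579, 0.0571 and 0.0571. The sign on day 10 turned positive under a second quantile normalization (0.009), in the 9 arrays of the earlier accessions (0.070) and without day 10 replicate 4 (7.005e-06). Under the second normalization and in the earlier accessions the day 14 difference was -0.019 and -0.00037, and in the earlier accessions that of day 17 was -0.062.

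**Figure D1:**
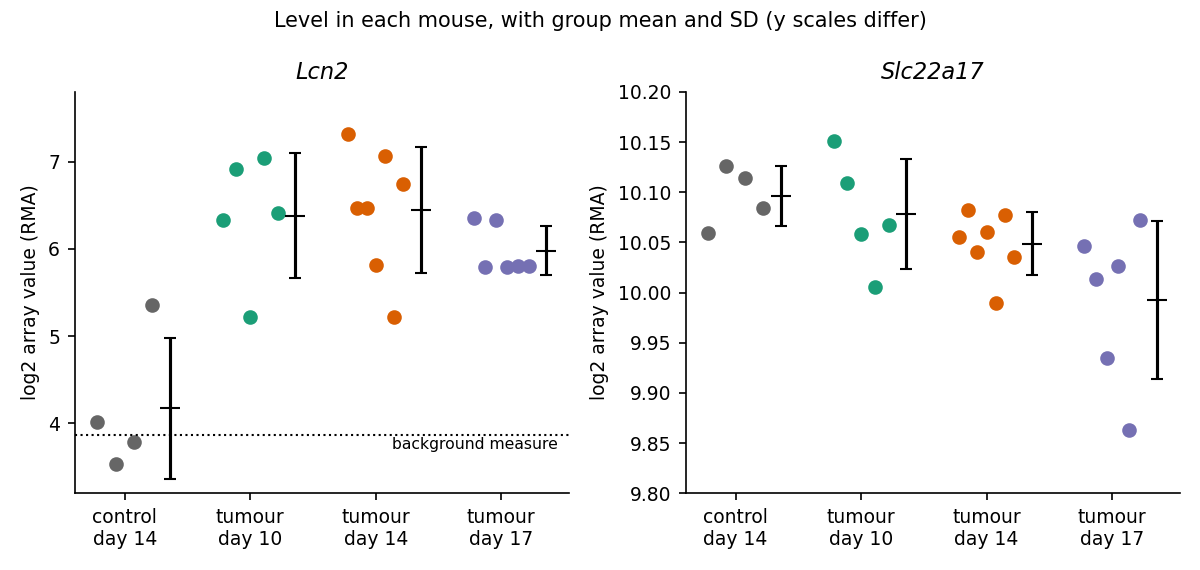
Log2 array values (y axis, RMA) of Lcn2 (left) and Slc22a17 (right) in each of 22 mice, grouped on the x axis as control day 14 and tumour days 10, 14 and 17, with bars for the mean and SD of each group. Lcn2 spans 3.53 to 7.32 and Slc22a17 only 9.86 to 10.15, and the y scales differ.

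Among tumour-bearing mice the order of Lcn2 means was day 14, day 10 and day 17, and no step in that order passed the threshold. Day 14 minus day 10 was 0.06 ± 0.34 (SE, log2, limma adjusted p = 0.987), a sign that turned without day 10 replicate 3 (-0.23), without day 14 replicate 1 or 5 (-0.09 and -0.04), with array weights (-0.20) and in the later accessions alone (-0.01). Day 17 minus day 10 was -0.40 ± 0.36 (limma adjusted p = 0.801). Day 17 minus day 14 was -0.46 ± 0.33 (limma adjusted p = 1.00), the 2nd largest fall of all genes in size, with a 95% interval of -1.14 to 0.21. In limma 0 genes were called between days 14 and 17 or between days 10 and 17, with 785 and 1562 at an unadjusted p below 0.05. Between days 10 and 14 limma called 1 gene, 0.00531% of those tested.

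For Slc22a17 the means fell in the order control, day 10, day 14 and day 17, and again no step passed. Day 14 minus day 10 was -0.029 ± 0.041 (SE, log2, limma adjusted p = 0.930), day 17 minus day 10 was -0.085 ± 0.042 (0.608) and day 17 minus day 14 was -0.056 ± 0.039 (1.00).

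**Figure D2:**
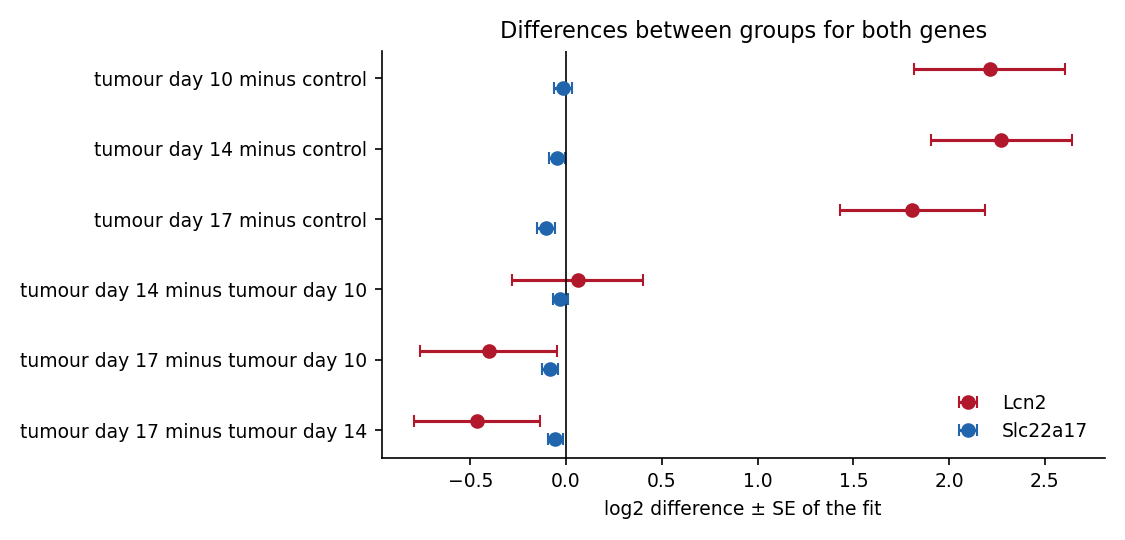
Log2 differences between groups (x axis) for Lcn2 (red) and Slc22a17 (blue) in 6 comparisons (y axis), with bars for the SE of the limma fit. Lcn2 lies between 1.81 and 2.27 in the comparisons with control, and every Slc22a17 point lies between -0.10 and 0.

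The 2 genes stood at opposite ends in how much mice of one group differed. The within-group SD of Lcn2 was 0.65, above that of 99.8% of genes, while that of Slc22a17 was 0.05, above that of 1.56%. The median gene above background had 0.12. Slc22a17 had a higher mean level than 97.8% of genes, and Lcn2 than 48.7%. Levels of different probe sets are not on one scale, so these ranks are only rough.

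No other receptor or partner gene passed the test. Of 5 such genes, limma called 0 on each of days 10, 14 and 17, with 0, 1 and 1 at an unadjusted p below 0.05. That p was reached by 10.7%, 10.5% and 16.6% of all genes, the background for such counts in every list. Over all genes, 0.106%, 0.218% and 1.12% were called on these days, of which 0.00531%, 0.0213% and 0.685% were lower. All 5 had a lower mean in tumour-bearing mice on each day, and their median difference was -0.06, -0.11 and -0.11 against 0.00, 0.00 and -0.01 over all genes. Mc4r, the melanocortin receptor through which appetite is reduced, averaged 6.36 ± 0.04 (SD, n = 4) in controls and 6.13 ± 0.18, 6.25 ± 0.10 and 6.12 ± 0.33 on days 10, 14 and 17. Its differences of -0.23, -0.11 and -0.24 did not pass (limma adjusted p = 0.542, 0.781 and 0.325). Lrp2 differed by -0.01, -0.10 and -0.11. Lrp6, a Wnt co-receptor, differed by -0.07, -0.11 and -0.11, and Mmp9, the protease that lipocalin 2 binds in neutrophils, by -0.06, -0.11 and -0.15.

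Among genes of the cytokines that induce Lcn2 and of their receptors, the receptor genes Il1r1 and Osmr rose on all 3 days. They were 2 of 19 measured members called higher on each day, where 0.101%, 0.197% and 0.436% of all genes were, and 0 were called lower. The list was drawn up with earlier results of these data known. An unadjusted p below 0.05 was reached by 5, 6 and 4, against 10.7%, 10.5% and 16.6% of all genes. The mean was higher in 17, 16 and 14 members and lower in 2, 3 and 5. The median difference of the list was 0.14, 0.13 and 0.09. Il1r1, the signalling receptor of interleukin 1, read 5.11, 5.18, 5.17 and 5.46 in controls. It ran from 5.84 to 6.53 on day 10, from 5.66 to 6.76 on day 14 and from 5.69 to 6.18 on day 17, and no tumour-bearing mouse overlapped a control. It rose by 0.91 ± 0.18, 0.91 ± 0.17 and 0.78 ± 0.17 (SE, log2, limma adjusted p = 0.0410, 0.0148 and 0.0302). Osmr, the oncostatin M receptor, rose by 0.65 ± 0.13, 0.69 ± 0.12 and 0.56 ± 0.12 (limma adjusted p = 0.0410, 0.00966 and 0.0276), with 1 mouse of day 14 below the highest control.

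These receptor calls depended on the arrays in the fit. When each of the 22 arrays was dropped, the calls of Il1r1 were lost in 12, 3 and 7 fits on days 10, 14 and 17 (highest limma adjusted p = 0.196, 0.110 and 0.112). Those of Osmr were also lost in 12, 3 and 7 fits (highest limma adjusted p = 0.182, 0.0839 and 0.125). Control replicates 1, 2 and 3 were among the arrays that mattered in every case. The differences themselves stayed between 0.74 and 0.99 for Il1r1 and between 0.48 and 0.78 for Osmr. Among these fits, the day 14 losses came only from those controls. Calls of both genes on all days were also lost in either run of accessions alone and without the 4 arrays highest in thalamus markers, and those of day 14 with only the groups compared. With the thalamus mean as a covariate they were lost except for Osmr on day 14. Over these settings the highest limma adjusted p was 0.825 for Il1r1 and 0.798 for Osmr. On day 10 the others were tumour day 10 replicates 1, 2, 4 and 5 for both genes, tumour day 14 replicate 2 and tumour day 17 replicates 3, 4, 5 and 6 for Il1r1, and tumour day 14 replicates 4 and 7 and tumour day 17 replicates 2, 4 and 5 for Osmr. On day 17 they were tumour day 17 replicates 1, 3, 4 and 5 for Il1r1 and 1, 2, 4 and 5 for Osmr.

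The cytokine transcripts themselves were at the edge of detection. Il1b averaged 3.28 ± 0.08 (SD, n = 4) in controls and 3.46 ± 0.09, 3.44 ± 0.20 and 3.54 ± 0.12 on days 10, 14 and 17, all below the background measure of 3.87. Its differences of 0.18, 0.15 and 0.26 did not pass (limma adjusted p = 0.504, 0.546 and 0.142). Il6 differed by 0.14, 0.04 and 0.07 and Tnf by 0.30, 0.06 and 0.07, also from levels below background.

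Of 11 measured transcription factor and feedback genes upstream of Lcn2, limma called 0 on every day, against 0.106%, 0.218% and 1.12% of all genes. An unadjusted p below 0.05 was reached by 2, 3 and 0 on days 10, 14 and 17. The medians were 0.06, 0.09 and 0.09. Nfkbiz, which encodes IkappaB-zeta, averaged 5.02 ± 0.13 (SD, n = 4) in controls and 5.16 ± 0.12, 5.29 ± 0.13 and 5.18 ± 0.26 on days 10, 14 and 17. Its differences were 0.14, 0.27 and 0.16 (limma adjusted p = 0.665, 0.343 and 0.462). Bcl3, a related nuclear IkappaB protein gene, had the largest difference of the list on day 10, 0.52 ± 0.11 (SE, limma adjusted p = 0.0693), with all 5 mice above every control, and differed by 0.25 and 0.0052 on days 14 and 17. The day 10 value passed with array weights (0.0163), with only these groups in the fit (0.0419) and without tumour day 14 replicate 1 or 6 or tumour day 17 replicate 1 (0.0250, 0.0305 and 0.0462, all limma adjusted p). Stat3 differed by 0.04, 0.09 and 0.08. Socs3, the feedback inhibitor that Stat3 induces, differed by 0.17, 0.07 and 0.10. Tnfaip3, an NF-kappaB feedback gene, differed by 0.20, 0.18 and 0.16.

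Of 16 other acute-phase and related genes measured, 5 were above background. Limma called 0, 0 and 1 of the 16 higher on days 10, 14 and 17, against 0.101%, 0.197% and 0.436% of all genes. It called 0 lower on each day, and the 1 higher call was Ch25h. An unadjusted p below 0.05 was reached by 3, 2 and 2, against 10.7%, 10.5% and 16.6% of all genes, and the medians were 0.11, 0.06 and 0.11. Ch25h, which encodes cholesterol 25-hydroxylase, was below background in all 4 controls (mean 3.52) and above it in all 6 mice of day 17 (mean 4.55). It was at least 1.60-fold higher there, against controls set to the background measure (fitted log2 difference 1.03 ± 0.18, SE, limma adjusted p = 0.00578) and differed by 0.84 and 0.75 on days 10 and 14 (limma adjusted p = 0.106 and 0.0818). Lrg1, a secreted leucine-rich glycoprotein gene, differed by 0.96 ± 0.25, 0.82 ± 0.23 and 0.52 ± 0.24 and did not pass (limma adjusted p = 0.174, 0.167 and 0.279), although all mice of days 10 and 14 lay above every control. Serpina3n, an acute-phase protease inhibitor gene of reactive astrocytes, was high in all groups, at 8.68 ± 0.13 (SD, n = 4) in controls and 8.77 ± 0.20, 8.70 ± 0.22 and 8.62 ± 0.09 on days 10, 14 and 17. Its differences were 0.10, 0.03 and -0.06 (limma adjusted p = 0.783, 0.95 and 0.828).

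Of 15 reactive astrocyte genes, Lcn2 left out, limma called 2, 1 and 1 higher on days 10, 14 and 17. It called 0 of them lower on each day, and 0.101%, 0.197% and 0.436% of all genes higher. An unadjusted p below 0.05 was reached by 5, 4 and 6, against 10.7%, 10.5% and 16.6% of all genes. The mean was higher in 13, 12 and 11 of them and lower in 2, 3 and 4, with medians of 0.15, 0.10 and 0.11. Osmr, also counted in the cytokine receptor list, was called on each day. The chemokine gene Cxcl10 was called on day 10, by 0.93 ± 0.17 (SE, log2, limma adjusted p = 0.0325). The Cxcl10 call was lost in either run alone, with the thalamus covariate, without the 4 arrays highest in thalamus markers (highest limma adjusted p = 0.695), and without control replicate 1, 2 or 3 or day 10 replicate 1, 2, 3 or 4 (highest limma adjusted p = 0.193).

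Of 23 measured iron handling genes, limma called 0, 0 and 1 higher and 0, 0 and 0 lower, against 0.101%, 0.197% and 0.436% of all genes higher. An unadjusted p below 0.05 was reached by 3, 3 and 3, near the share over all genes, and the medians were 0.02, -0.02 and -0.02. Tfrc, the transferrin receptor gene through which cells take up iron, averaged 7.85 ± 0.05 (SD, n = 4) in controls, 7.92 ± 0.13 on day 10, 8.13 ± 0.12 on day 14 and 8.26 ± 0.09 on day 17. It rose by 0.41 ± 0.07 on day 17 (SE, log2, limma adjusted p = 0.00514), with 6 of 6 mice above every control, and differed by 0.28 on day 14 (limma adjusted p = 0.0982) and 0.07 on day 10. The day 17 calls of Tfrc and Ch25h were lost in either run alone and without the 4 arrays highest in thalamus markers (highest limma adjusted p = 0.381 and 0.379). Red cell precursors also carry this receptor. The mean of the 3 measured red cell markers ran from 4.01 to 5.00 in controls and from 4.82 to 5.78, 4.99 to 6.22 and 5.63 to 6.86 on days 10, 14 and 17, and its part in the Tfrc rise was not tested. Cybrd1, an iron reductase gene, differed by 0.28, 0.25 and 0.18 and Bmp6, an inducer of hepcidin, by 0.80, 0.50 and 0.32, all without passing.

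Relatives of the 2 genes by family were also counted. Of 16 other lipocalin genes measured, 6 were above background, and limma called 0, 0 and 0 on days 10, 14 and 17. Over all genes, 0.106%, 0.218% and 1.12% were called, so 0 calls in such short lists say little about them. Of the lipocalin genes, 3, 0 and 0 had an unadjusted p below 0.05, with medians of 0.10, 0.00 and 0.04. Ptgds, the abundant prostaglandin D synthase lipocalin of brain linings, differed by 0.36, 0.36 and 0.30 and Apod, a glial lipocalin, by 0.26, 0.27 and 0.29. Of 16 other Slc22 transporter genes, 10 were above background, and limma called 0, 0 and 0. An unadjusted p below 0.05 was reached by 3, 1 and 3, with medians of 0.09, 0.05 and 0.11. Slc22a23, another orphan member of the family in brain, differed by -0.04, -0.13 and -0.12.

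**Figure D3:**
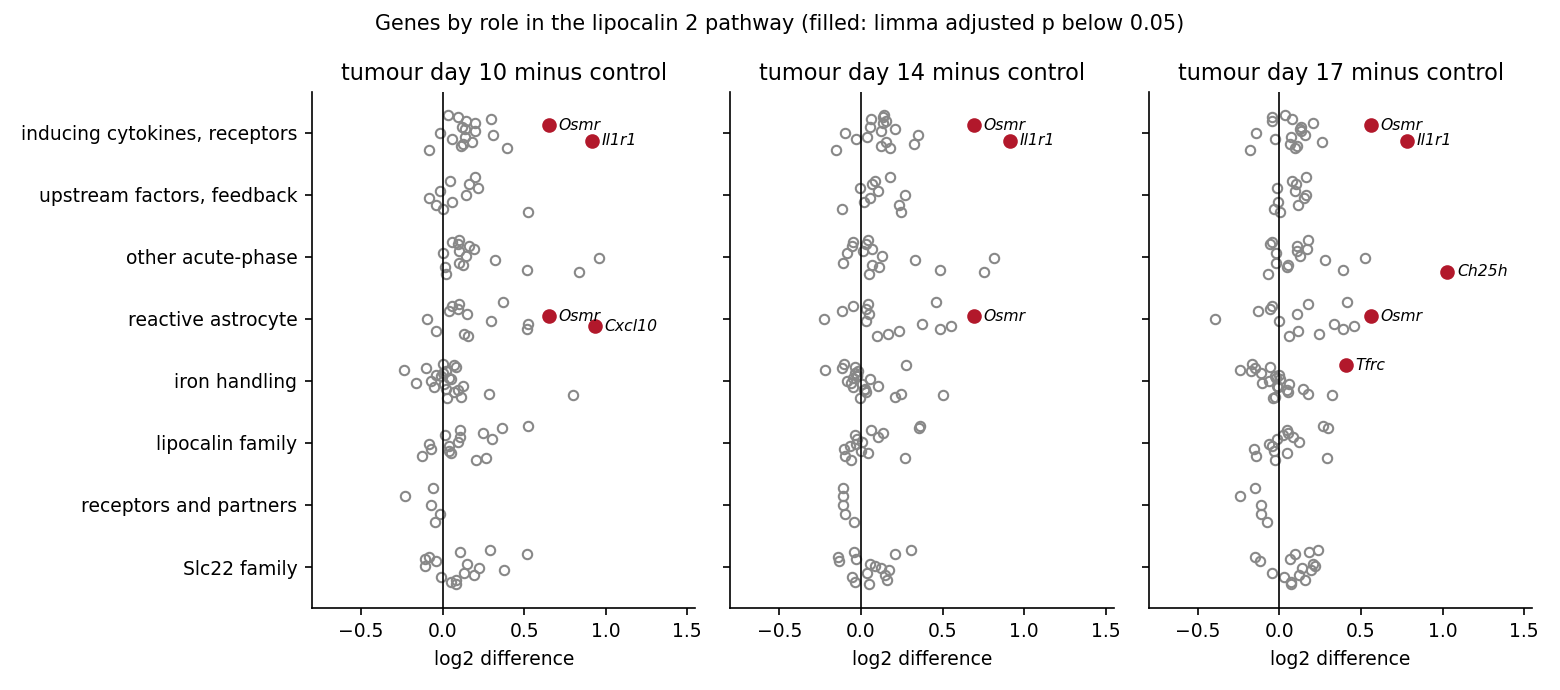
Log2 difference from control (x axis) of each measured gene in 8 lists by role (y axis), on tumour days 10, 14 and 17 (panels). Filled red points passed a limma adjusted p of 0.05, and these were Il1r1, Osmr, Cxcl10, Ch25h and Tfrc. Open grey points did not pass.

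Over all 22 arrays, the highest Pearson r among 13093 genes above background belonged to Il1r1 (0.92), Zbtb16 (0.92), Tgm2 (0.91), Mertk (0.90), Acer2 (0.89), Osmr (0.89), Vwf (0.88), Slc2a1 (0.88), Adipor2 (0.88) and Fkbp5 (0.87). Zbtb16 and Fkbp5 are induced by glucocorticoids, Vwf encodes von Willebrand factor of endothelium, Slc2a1 the glucose transporter of brain vessels and Mertk a receptor of phagocytes and astrocytes. Tgm2 encodes transglutaminase 2, Acer2 an alkaline ceramidase and Adipor2 an adiponectin receptor. These r include the difference between control and tumour, which several of the genes share with Lcn2.

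With each group's mean taken off, the order over the 22 arrays was Vwf (0.85), Slc2a1 (0.84), Aff1 (0.84), Acer2 (0.83), Adipor2 (0.81), Il1r1 (0.79), Zbtb16 (0.77), Ptgs2 (0.77), Tgm2 (0.77) and Chchd7 (0.75). Ptgs2 is the inducible cyclooxygenase. Among the 18 tumour-bearing mice alone, r with Lcn2 was 0.88 for Tgm2, 0.83 for Il1r1, 0.70 for Vwf, 0.69 for Slc2a1 and 0.59 for Acer2. In the earlier and later accessions taken alone, controls included, r of levels was 0.91 and 0.95 for Il1r1 and 0.87 and 0.88 for Vwf. Both pairs of values include the difference between control and tumour, with 1 control in the earlier accessions and 3 in the later. These r are descriptions of genes picked for being high, over arrays that share their normalization.

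These genes were picked for following Lcn2, so the order of mice in them is given only as a description. Control replicate 4, the control with most Lcn2, was also the highest control for Il1r1 (5.46), Zbtb16 (7.93), Vwf (6.00), Acer2 (7.04) and Slc2a1 (10.30). The next highest controls had 5.18, 7.11, 5.75, 6.55 and 10.10. For the mean of 12 brain endothelium markers the same control was the lowest of the 22 mice, at 6.76, against 6.92, 6.88 and 6.89 in control replicates 1, 2 and 3. Of 13 genes named for likeness, the tumour-bearing mouse lowest in Lcn2 but one, day 14 replicate 6, was among the 3 lowest of 18 in 10, and day 10 replicate 3, the lowest, in 7. Day 14 replicates 1 and 5, the highest in Lcn2, were among the 3 highest in 9 and 8.

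**Figure D4:**
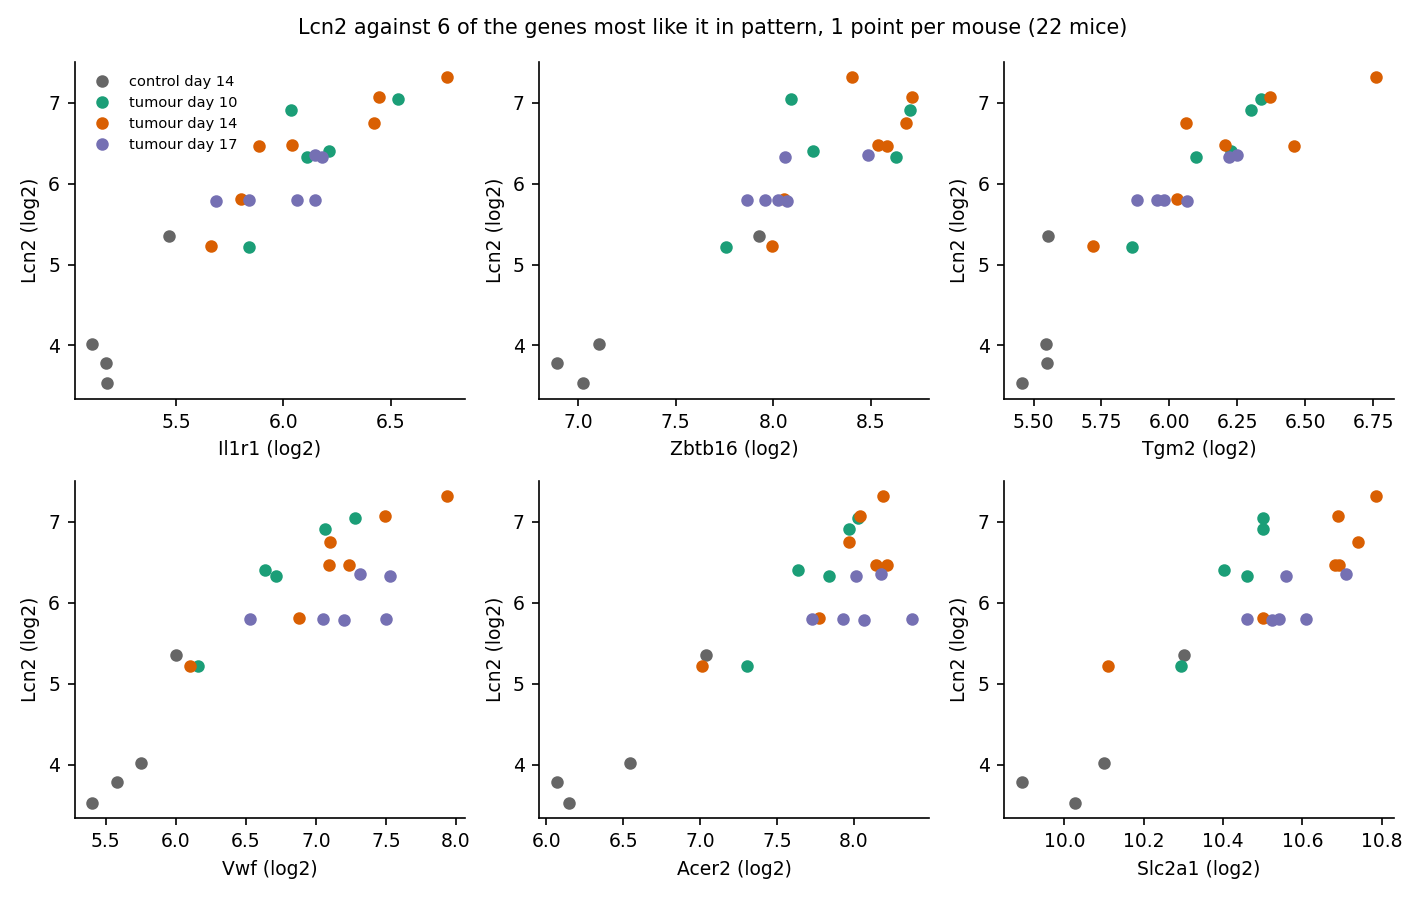
Log2 value of Lcn2 (y axes) against Il1r1, Zbtb16, Tgm2, Vwf, Acer2 and Slc2a1 (x axes), 1 point for each of 22 mice, coloured by group. Control replicate 4 is the grey point at 5.35 for Lcn2, the highest control in each panel.

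The genes most like Slc22a17 over the 22 arrays were Fsd1 (r = 0.82), Josd2 (0.81), Slitrk1 (0.81), Nfe2l1 (0.79) and Smc1a (0.79). With group means taken off they were Sbk1 (0.81), Fbxo41 (0.78), Trpt1 (0.76), Pcdh8 (0.75) and Zfp511 (0.75). In the earlier and later accessions, controls included, r of levels was 0.79 and 0.85 for Fsd1. It was 0.14 and 0.65 for Trpt1 and 0.23 and 0.80 for Pcdh8. Among the 18 tumour-bearing mice it was 0.83 for Fsd1, 0.40 for Trpt1 and 0.63 for Pcdh8. Slitrk1 and Pcdh8 encode adhesion proteins of neurons and Fsd1 a microtubule-associated protein of brain. The mean of 9 neuron markers ran from 10.62 to 10.71 in controls and from 10.53 to 10.62, 10.50 to 10.61 and 10.50 to 10.61 on days 10, 14 and 17. All 9 had a lower mean on each day, with medians of -0.08, -0.07 and -0.07. Limma called 0 of them on days 10 and 14, with 2 and 3 at an unadjusted p below 0.05, and 1 on day 17 (Nefl, a neurofilament gene, -0.23 ± 0.06, limma adjusted p = 0.0445). The Nefl call was lost in 13 of the 22 fits with 1 array dropped (highest limma adjusted p = 0.165) and in 7 of 14 other settings (highest 0.788), with differences between -0.26 and -0.18. The 13 arrays were control replicates 1, 2 and 3, day 10 replicates 2 and 4, day 14 replicates 3, 5, 6 and 7 and day 17 replicates 2, 3, 4 and 5. Their part in the Slc22a17 values was not tested.

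Lcn2 was set against 5 measures among the 18 tumour-bearing mice, with p from 100000 permutations adjusted over the 5. The permutations exchanged mice of days 10, 14 and 17 freely, so these p do not account for differences between days. Lcn2 and its receptor gene showed no relation that could be detected (r = 0.04, permutation p = 0.879, adjusted 0.879, rho = -0.08, permutation p = 0.762, adjusted 0.952). The r was -0.15 without the 2 mice farthest from the median of Slc22a17. Within day 14 it was -0.56 (n = 7, exact permutation p = 0.152), within day 17 -0.01 (n = 6, exact permutation p = 0.981), and 0.28 (n = 8) and -0.21 (n = 10) in the earlier and later accessions.

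The mean of 12 brain endothelium markers was higher in mice with more Lcn2 (r = 0.67, permutation p = 0.00236, adjusted 0.0118), but the rank correlation did not pass (rho = 0.57, permutation p = 0.0145, adjusted 0.0724). Without the 2 mice farthest from the median, r was 0.48 (n = 16, permutation p = 0.0612, adjusted 0.306) and no longer passed. It was 0.84 within day 14 (n = 7, adjusted exact permutation p = 0.0734) and 0.63 within day 17 (n = 6, adjusted exact permutation p = 0.375). In the earlier and later accessions it was 0.40 (n = 8, adjusted exact permutation p = 0.712) and 0.71 (n = 10, adjusted permutation p = 0.149). The mean of 10 astrocyte markers gave r = 0.04 (permutation p = 0.867, adjusted 0.879; rho = 0.01, permutation p = 0.981, adjusted 0.981) and that of 13 thalamus markers r = 0.18 (permutation p = 0.492, adjusted 0.820; rho = 0.35, permutation p = 0.157, adjusted 0.261).

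Whether neutrophils contributed to the Lcn2 RNA was not tested, and the neutrophil markers were near background. Of 11 measured, 10 had a mean below the background measure and 6 lay below it on all 22 arrays. Limma called 0 of the 11 on each day, against 0.106%, 0.218% and 1.12% of all genes. An unadjusted p below 0.05 was reached by 1, 3 and 2, against 10.7%, 10.5% and 16.6% of all genes. S100a8 averaged 3.24 in controls and 3.35, 3.31 and 3.43 on days 10, 14 and 17, and S100a9 3.51 in controls and 3.71, 3.52 and 3.68. Csf3r, the one member above background, differed by -0.20, -0.28 and -0.32 (limma adjusted p = 0.584, 0.384 and 0.171). Retnlg, below background, differed by 0.20, 0.23 and 0.42 (limma adjusted p = 0.534, 0.445 and 0.0542). The mean of the list ran from 3.24 to 3.41 in controls and from 3.27 to 3.48, 3.28 to 3.53 and 3.27 to 3.53 on days 10, 14 and 17. Among tumour-bearing mice it had r = 0.52 with Lcn2 (permutation p = 0.0295, adjusted 0.0738; rho = 0.37, permutation p = 0.124, adjusted 0.261), and r = 0.38 without the 2 mice farthest from the median.

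**Figure D5:**
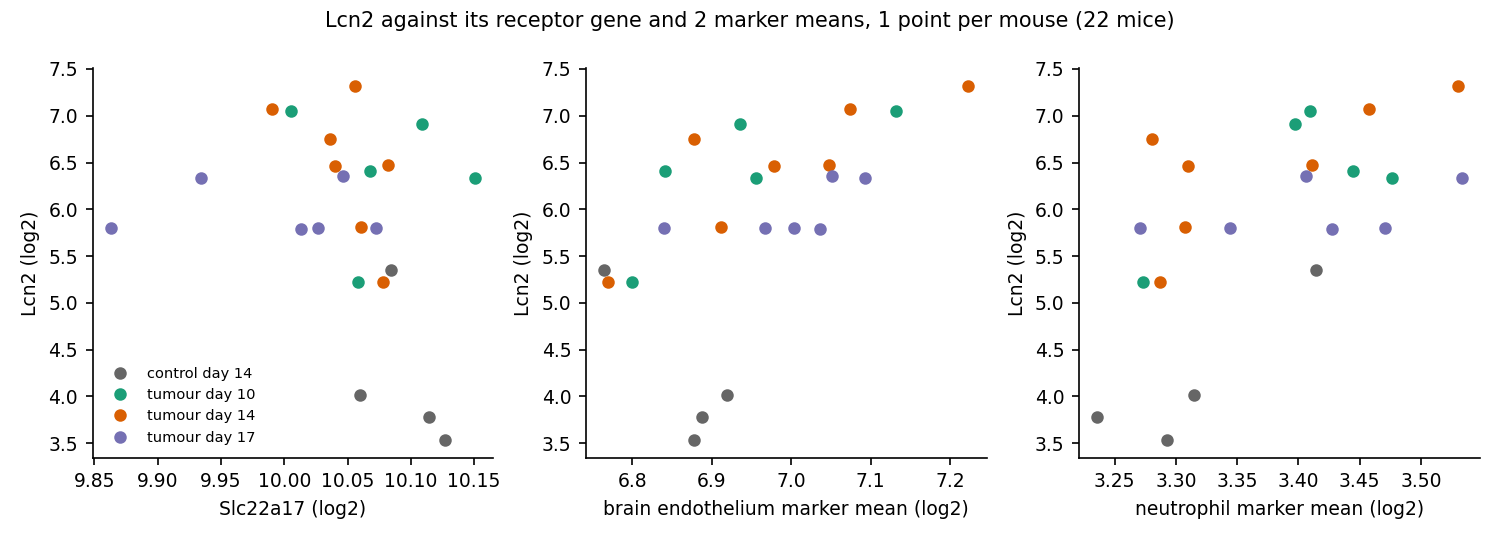
Log2 value of Lcn2 (y axes) against Slc22a17 and the means of the brain endothelium and neutrophil marker lists (x axes), 1 point for each of 22 mice, coloured by group. All mice lie between 9.86 and 10.15 for Slc22a17 (r = 0.04 in tumour-bearing mice), and the neutrophil mean stays below the background measure of 3.87 in every mouse.

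Markers of the tissue were present, with 15 of 16 measured hypothalamus markers above background. Their median difference from control was -0.06, 0.02 and -0.03 on days 10, 14 and 17. Thalamus markers had a lower mean in tumour-bearing mice on each day in 13 of 13 genes, with medians of -0.40, -0.38 and -0.41. Their mean ran from 6.42 to 7.54 in controls and from 6.33 to 7.18 over tumour-bearing mice. With that mean as a covariate the Lcn2 differences were 2.17, 2.23 and 1.77, and without the 4 arrays highest in these markers, which leaves 2 controls, they were 1.94, 2.00 and 1.46. The medians of the other marker lists on days 10, 14 and 17 were 0.09, 0.14 and 0.14 for brain endothelium, 0.01, -0.04 and -0.04 for astrocytes, 0.07, -0.02 and -0.10 for microglia and 0.09, -0.14 and -0.15 for oligodendrocytes. They were 0.06, 0.10 and 0.05 for choroid plexus, 0.47, 0.29 and 0.16 for meningeal fibroblasts and 1.01, 1.69 and 2.10 for red cells. On each of days 14 and 17 limma called 1 of 11 microglia genes lower, where 0.0213% and 0.685% of all genes were. It called 2 of 3 red cell and 1 of 16 hypothalamus genes higher on both days, where 0.197% and 0.436% of all genes were. The accessions fall into a run of 9 arrays with 1 control and a run of 13 with 3 controls, and the labels do not say whether these were batches. The Lcn2 differences were 2.61, 2.74 and 2.14 in the earlier run and 2.00, 1.99 and 1.58 in the later run. The part of meningeal and red cell RNA in the Lcn2 values was not tested.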

How the data were processed

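The deposited values are log2 expression values, 1 per probe set and array; the submitters' processing notes name RMA, a method that adjusts background, equalises array distributions and combines the probes of a set. Its version, the genome build and the annotation are not given in the sources used here. Of 35556 probe sets, 21218 were paired with 1 gene, 1881 with several and 12457 were unnamed here. The probe set with the highest mean stood for each gene, and no filter on low values was applied.

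One model with 4 group means covered the 22 arrays and was fitted in limma 3.58.1 under R 4.3.3 (lmFit, contrasts, eBayes, 18 residual degrees of freedom, two-sided, Benjamini-Hochberg over 18820 genes). Correlations used SciPy 1.17.1. Promoter sequences came from RefSeq (GRCm38.p6), and 2 of 2 genes matched. The fit was tested on simulated data. The number of arrays limits the precision. Medians of the arrays lay between 5.27 and 5.34, pairwise correlations lay between 0.980 and 0.995, and 0 pairs were identical. The labels describe separate mice.

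The members, the 8 role lists, the 11 marker lists and the tests were chosen with earlier results of these data known. The rule for named genes took both members, 10 fixed pathway genes (among them Lrp2, Mc4r, Mmp9, Il1b, Il6, Tnf, Nfkbiz, Stat3, Socs3 and Serpina3n), up to 4 called members per list and day or otherwise the 2 with the smallest p, of which examples are given. It also took the 10 and 5 genes with the highest r with Lcn2 and Slc22a17, passing over genes below background, predicted genes, small RNA genes and chemosensory receptors. Nefl, S100a8, S100a9, Csf3r and Retnlg were named after their values were seen. Alternatives used an intensity trend, array weights, another scaling, a filter on low values, another choice of probe set, only the groups compared, a replicate block, the accession runs, the thalamus markers and fits without each array. The earlier run alone was chosen after seeing the data.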

Additional observations from a re-analysis of the deposited data

Results flagged for a closer look

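In 44 measures (both genes, the named list genes and the marker list means) and 4 groups, the highest or lowest mouse stood apart from its group by Dixon's 95% criterion in 13 of 176 groups (7.39%). Chance flags about 1 in 20 groups, and neither Lcn2 nor Slc22a17 was among them. Low values were Bcl3 at 4.08 in control replicate 1, Lrp6 at 7.70 in control replicate 2, Slc22a22 at 2.52 in control replicate 3 and Serpina3n at 8.43 in tumour day 17 replicate 1. High values were Il1b at 3.62 and Mmp9 at 4.59 in tumour day 10 replicate 1, Lrp2 at 4.84 in tumour day 10 replicate 3 and Il6 at 2.34 in tumour day 17 replicate 1. The mean of the microglia markers was low at 5.94 in control replicate 4, the control with most Lcn2. The mean of the red cell markers was high at 5.78 in tumour day 10 replicate 4. The mean of the thalamus markers was high at 6.76 in tumour day 10 replicate 5, at 7.18 in tumour day 14 replicate 2 and at 6.97 in tumour day 17 replicate 1.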

How the results depend on the processing

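The 3 Lcn2 differences from control kept their sign and moved by less than 1 SD in all 36 alternatives, within 1.94 to 2.61, 1.99 to 2.74 and 1.46 to 2.20 on days 10, 14 and 17. Slc22a17 passed in none of its alternatives (lowest adjusted p = 0.0571, from the exact permutation test on days 14 and 17). Its day 10 difference turned under a second quantile normalization (0.0090) and in the earlier run alone (0.070), and ran from -0.036 to 7.005e-06 with 1 array left out. Its day 14 difference ran from -0.068 to -0.00037 and its day 17 difference from -0.12 to -0.062 over all alternatives. Lcn2 on day 14 minus day 10 turned with array weights (-0.20) and in the later run alone (-0.012), and ran from -0.23 to 0.26 with 1 array left out. With the replicate number as a replicate block, limma called 140 genes on day 14, 616 on day 17 and 19 between days 10 and 17, against 41, 211 and 0. The number pairs nothing in the labels, and the deviations of same-numbered mice correlated above 0.1 in 15 of 28 pairs (-0.19 to 0.35). Mice with different numbers were not compared, so this count has no baseline and does not show a pairing. Within each group the lower numbers also fell in the earlier run of accessions. The block changed no call of Lcn2 or Slc22a17.

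Counts of genes called on days 10, 14 and 17 were 20, 41 and 211. They were 76, 120 and 457 with array weights, 0, 0 and 0 using later accessions only, 1, 1 and 1 using earlier ones, 0, 11 and 90 with the thalamus mean as a covariate, and 0, 0 and 0 once the 4 arrays richest in those markers were dropped. On days 14 and 17 an intensity trend gave 93 and 323, and only the groups compared gave 0 and 81. Only genes above background gave 68 on day 14. With 1 array left out they ran from 0 to 25, 2 to 115 and 37 to 382. Between days 10 and 14 the count was 0 in place of 1 in the earlier run, the later run and with only those groups. Between days 10 and 17 it was 2 with array weights and ran from 0 to 12 with 1 array left out, and between days 14 and 17 from 0 to 1. The cause was not tested. Of the correlations with Lcn2, that of Slc22a17 turned to -0.56 within day 14, -0.013 within day 17, -0.21 in the later run and -0.15 without the 2 farthest mice, and that of the astrocyte mean to -0.33 within day 14. The endothelium correlation no longer passed within day 14 (0.84), day 17 (0.63), the earlier run (0.40), the later run (0.71) or without the 2 farthest mice (0.48), all with fewer mice. Of 3324 values of single list genes, 86 lost and 17 gained a call, and 55 that passed in neither fit had the other sign. Of 1728 list counts, 101 moved by over 1.5 times. Lcn2 in controls lay near background, which limits how low it can read.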
